A study of Mus musculus with 6 samples.

Results

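The 33 genes described here encode the lipid carriers, digestive enzymes, transporters and brush border proteins of the enterocyte, the absorptive cell of the intestinal epithelium. They were chosen by gene symbol from a list, taking the probe set that the array's annotation assigns to that symbol alone, and all 33 were found among the 22180 genes with such a probe set. Rbp2 had 2 probe sets, of which the brighter was used, and each other member had 1. The arrays themselves were not made from epithelium. They held amplified RNA of intestinal blood endothelial cells of the mouse, sorted as live single cells that carried CD31 and lacked CD45, EpCAM and gp38. The 3 knockout samples came from adult mice of genotype Apcfl//fl; Villin-CreERT2, in which the villin promoter drives a tamoxifen-activated Cre in the gut epithelium, where it deletes Apc, a brake on Wnt signalling. The 3 control samples came from adult mice labelled WT, Apcfl//fl, for which no Cre is named. Both groups had the mixed C57BL/6 x 129 background, and the labels of both name floxed Apc alleles. Both received tamoxifen under the skin on each of 5 days before the intestine was taken on day 6. The labels name neither the age in weeks nor the intestinal segment used, and do not say whether a replicate pooled animals.

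Enterocytes line the villi and take up the products of digestion through a brush border of microvilli, whose membrane carries disaccharidases, peptidases and sugar, peptide and amino acid transporters. Inside the cell, fatty acids and retinol are bound by small carrier proteins, rebuilt into fat and packed with apolipoproteins into chylomicrons, which leave at the base of the cell. The programme is not known as one of endothelial cells, and the sort was set to leave epithelial cells out through their EpCAM.

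Values are log2 expression values per probe set, normalised together by the authors, with array medians between 4.77 and 4.81. A value of 4.12, the 90th percentile of 1432 odorant, pheromone and taste receptor genes, served as the background level. All 16 endothelial markers examined were above it, and Pecam1, which encodes CD31, stood at 11.43 in the knockout group and 11.43 in the control group. Epcam, the gene of the epithelial antigen used for exclusion, was at 3.74, 3.75 and 3.81 on knockout arrays 1 to 3 and 3.87, 7.20 and 6.24 on control arrays 1 to 3. It was therefore below background on 4 arrays and above it in controls 2 and 3. The Cre acts in epithelium, so Apc in sorted endothelium, with a change of -0.16 ± 0.14, adjusted p = 0.65, is no check of the labels. Precision is limited by the number of arrays, 3 in each group.

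Control 1 stood apart from the other controls over these genes. It was the lowest of the 3 controls for 33 of 33 members, which held for 31.3% of all 22180 genes. Control 2 was the highest control for 26 of the 33, which held for 34.5% of all 22180 genes. The mean of the 33 members was 5.93 in control 1, 7.58 in control 2 and 7.14 in control 3, and between 4.83 and 5.25 on the knockout arrays. The groups did not overlap in this mean, but control 1 lay nearer to the highest knockout array than to either of the other controls.

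Enterocyte transcripts were lower in endothelial preparations from knockout mice. The mean of the 33 members was 5.00 ± 0.22 (SD, n = 3) in the knockout group and 6.88 ± 0.85 (SD, n = 3) in the control group, a difference of -1.88 ± 0.51 on the log2 scale (standard error from the array means). The group mean was lower in the knockout for 32 of 33 members, Ada being the exception, and the median change was -1.82, against -0.017 over the 15287 genes tested. Each gene was tested with limma, with p-values adjusted over all 15287 genes; its change is the knockout minus the control mean on the log2 scale, ± the standard error of the fit. At an adjusted p of 0.05 or less, 19 of the 31 members above background were lower in the knockout, where 1.48% of the genes tested were, and 18 of these 19 changed at least 2-fold. None was higher, where 1.13% of the genes tested were, and 1 (Ada) was higher at an unadjusted p of 0.05. Because the background level acts on the mean of all arrays, members carried by the control group alone could enter the test, so the fit was also made with every gene. It placed 17 of the 33 members lower, against 0.839% of all genes. For 25 of the 33 members, every knockout array lay below every control array, which held for 10.2% of all genes. A lower share of epithelial cells and less of this RNA per cell cannot be told apart in sorted bulk samples.

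The count of members called lower moved with the arrays used. It was 8 without knockout 1 (0.87% of all genes tested), 9 without knockout 2 (0.648%), 5 without knockout 3 (0.327%), 8 without control 2 (0.661%) and 5 without control 3 (0.451%). Leaving out control 1 gave 27 (1.66%). With controls 2 and 3 both left out and control 1 as the lone control, assumed to vary like the knockout arrays, 4 members passed (0.19%). These 4 were Fabp1, Fabp2, Rbp2 and Sis, and all 4 also passed without each single array in turn.

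**Figure D1:**
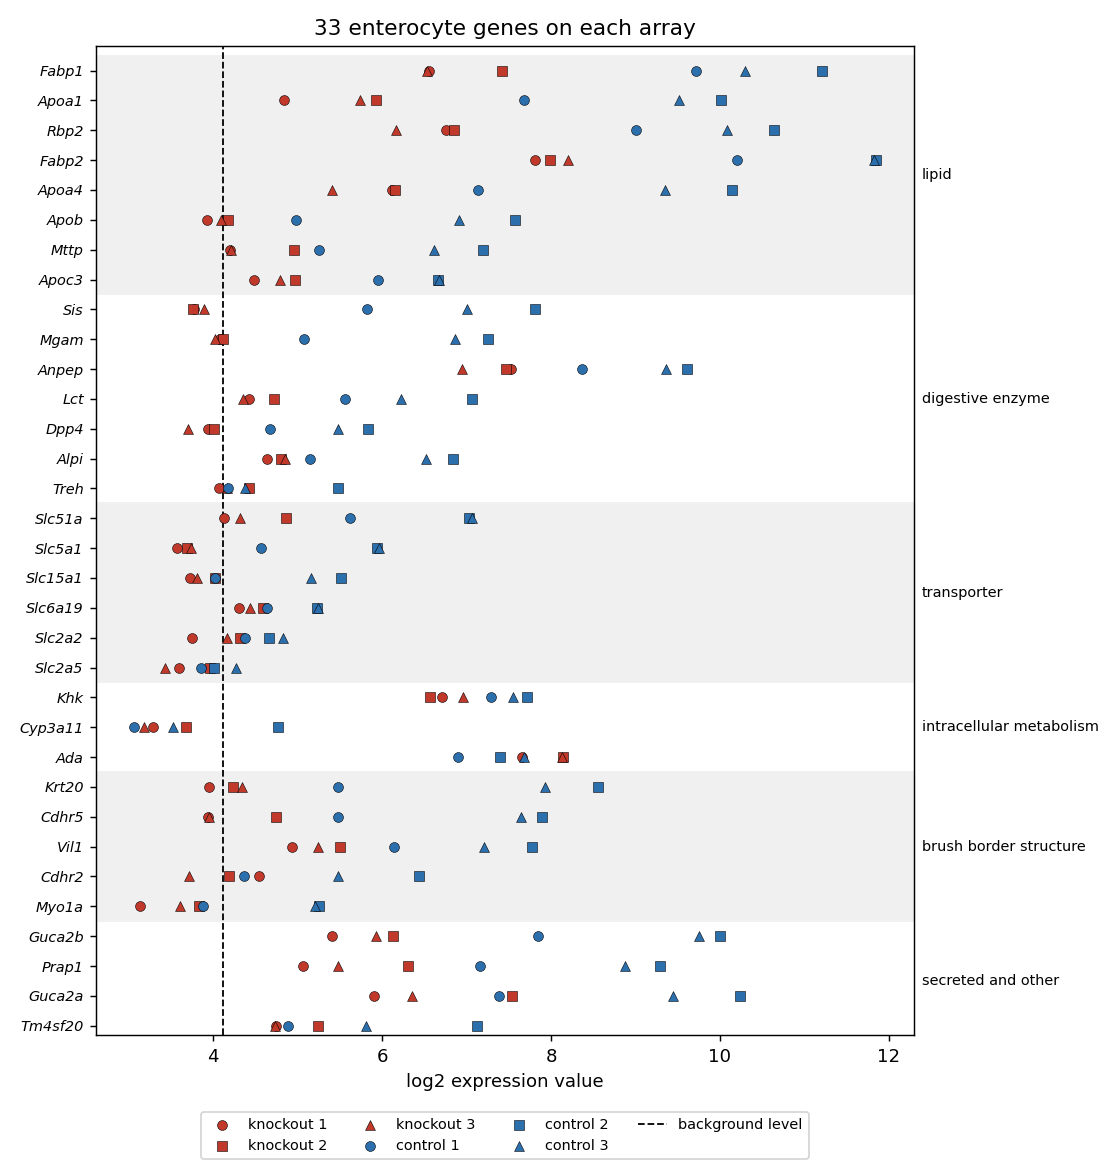
Log2 expression value of each of the 33 genes on the 3 knockout arrays (red) and the 3 control arrays (blue), 1 point per array, with genes grouped by role and the dashed line at the background level of 4.12. Control 1 (blue circles) is the lowest control for every gene, and the knockout points lie left of all controls for 25 of 33 genes.

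Lipid carriers and lipoprotein genes had the largest median fall of the 6 roles into which the members were sorted. Of the 8 members, 6 were lower with an adjusted p of 0.05 or less, the groups did not overlap for any of the 8, and the median change was -3.14. Fabp1, the liver-type fatty acid binding protein that is also abundant in proximal enterocytes, was at 6.55, 7.42 and 6.53 on knockout arrays 1 to 3 and 9.71, 11.20 and 10.29 on control arrays 1 to 3. The knockout arrays lay more than 2 log2 units below the lowest control. The change was -3.57 ± 0.36 (adjusted p = 0.00334), or 11.9-fold. Its intestinal counterpart Fabp2 was at 7.81, 7.99 and 8.20 on knockout arrays 1 to 3 and 10.21, 11.85 and 11.82 on control arrays 1 to 3, with a change of -3.29 ± 0.38 (adjusted p = 0.00479). Its knockout values were well above background, and the groups did not overlap. Rbp2, the enterocyte carrier of retinol, was at 6.76, 6.85 and 6.16 on knockout arrays 1 to 3 and 9.01, 10.64 and 10.09 on control arrays 1 to 3, and changed by -3.32 ± 0.36 (adjusted p = 0.00379). The second probe set of Rbp2 was at 6.02, 6.29 and 5.41 on the knockout arrays and at 8.12, 9.92 and 9.28 on the control arrays, the same order of groups and the same lowest control.

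The promoters of these 3 carriers and that of the disaccharidase gene Sis are shown because these 4 genes also passed against control 1 alone. They are the 250 bases before the annotated start, read 5′ to 3′ from RefSeq promoters on build GRCm38.p6, with capitals marking matches on either strand to TATAAA (the TATA box), TTTATNG (a core bound by CDX factors, which overlaps the TATA box where that is preceded by C), AGATAA (bound by GATA factors), CAAAGTCCA (HNF4) and CAAAGGTCA (a nuclear receptor repeat). Fabp1 lies at chr6:71199629-71199878, plus strand, Fabp2 at chr3:122894822-122895071, plus strand, Rbp2 at chr9:98490287-98490536, plus strand and Sis at chr3:72967864-72968113, minus strand.
Fabp1: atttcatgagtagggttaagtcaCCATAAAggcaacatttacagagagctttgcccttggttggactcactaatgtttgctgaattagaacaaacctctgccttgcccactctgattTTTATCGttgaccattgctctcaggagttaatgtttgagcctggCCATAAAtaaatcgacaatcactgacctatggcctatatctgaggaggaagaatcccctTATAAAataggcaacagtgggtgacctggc
Fabp2: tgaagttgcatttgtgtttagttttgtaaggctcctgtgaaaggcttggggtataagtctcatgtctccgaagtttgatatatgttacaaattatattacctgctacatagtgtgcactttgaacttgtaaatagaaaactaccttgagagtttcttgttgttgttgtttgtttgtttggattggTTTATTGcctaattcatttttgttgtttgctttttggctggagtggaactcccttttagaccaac
Rbp2: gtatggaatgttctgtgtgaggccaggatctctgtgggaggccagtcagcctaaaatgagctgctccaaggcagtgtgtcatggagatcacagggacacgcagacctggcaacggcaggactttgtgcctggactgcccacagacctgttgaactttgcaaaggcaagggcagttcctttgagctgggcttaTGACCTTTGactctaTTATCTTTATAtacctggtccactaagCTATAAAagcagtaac
Sis: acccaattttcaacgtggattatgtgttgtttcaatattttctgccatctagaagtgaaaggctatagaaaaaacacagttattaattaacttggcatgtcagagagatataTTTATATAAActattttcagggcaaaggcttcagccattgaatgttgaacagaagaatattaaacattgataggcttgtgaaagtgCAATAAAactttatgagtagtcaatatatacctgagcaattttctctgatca
Each of the 4 holds a TTTATNG match, and in Rbp2 it lies over the TATA box 15 bases before the start. Over the 31 members with a promoter in the table, TTTATNG was found in 8 (25.8%), against 10.2% of 27025 promoters, TATAAA in 9 (29.0%), against 13.0%, and AGATAA in 7 (22.6%), against 10.3%. CAAAGTCCA was found in 3 (Alpi, Cyp3a11 and Treh), or 9.68%, against 0.381%, and CAAAGGTCA in Rbp2 alone (3.23%), against 0.407%. These are letter matches in a short window and were not tested against the expression values.

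Apolipoprotein genes followed. Apoa1, the main protein of high-density lipoprotein, was at 4.84, 5.93 and 5.74 on knockout arrays 1 to 3 and 7.68, 10.01 and 9.51 on control arrays 1 to 3, and changed by -3.57 ± 0.53 (adjusted p = 0.0137). Apoa4, an apolipoprotein secreted with chylomicrons, was at 6.12, 6.16 and 5.41 on knockout arrays 1 to 3 and 7.14, 10.14 and 9.35 on control arrays 1 to 3, with a change of -2.98 ± 0.63 (adjusted p = 0.0446). In both, control 1 stood between the knockout arrays and the other controls. Apoc3, an inhibitor of lipoprotein lipase, was at 4.48, 4.97 and 4.79 on knockout arrays 1 to 3 and 5.95, 6.66 and 6.67 on control arrays 1 to 3. It changed by -1.68 ± 0.22 (adjusted p = 0.00902) and kept its call without each array in turn. Apoa1, Apoc3 and Apoa4 are neighbours in the RefSeq gene order. Apob, the structural protein of chylomicrons, averaged 4.06 in the knockout, below background, and 6.49 in the control, at least 5.09-fold apart with low arrays set to the background level, but did not pass (adjusted p = 0.0527). Mttp, which loads lipid onto the Apob protein, had a change of -1.90 ± 0.44 (adjusted p = 0.0588).

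Brush border digestive enzymes were lower in 5 of 7 members, with a median change of -1.78. Sis, sucrase-isomaltase, was at 3.77, 3.76 and 3.89 on knockout arrays 1 to 3 and 5.82, 7.81 and 7.0 on control arrays 1 to 3. It was below background on all 3 knockout arrays and above it in all controls, at least 6.77-fold lower against the background level (adjusted p = 0.00884). Mgam, maltase-glucoamylase, was at 4.08, 4.12 and 4.02 on knockout arrays 1 to 3 and 5.07, 7.25 and 6.87 on control arrays 1 to 3, at least 4.84-fold lower (adjusted p = 0.0391). Lct, the lactase gene, was at 4.42, 4.72 and 4.35 on knockout arrays 1 to 3 and 5.56, 7.06 and 6.22 on control arrays 1 to 3, and changed by -1.78 ± 0.32 (adjusted p = 0.027). Among the peptidases, Dpp4 was at least 2.31-fold lower (adjusted p = 0.0272), its knockout arrays lying between 3.70 and 4.01. Anpep, aminopeptidase N, was at 7.52, 7.46 and 6.95 on knockout arrays 1 to 3 and 8.36, 9.61 and 9.36 on control arrays 1 to 3, with a change of -1.80 ± 0.29 (adjusted p = 0.0185). All its values were well above background. Anpep is also made by pericytes, and 7 of 17 mural and fibroblast markers were lower as well, against 1.48% of all genes tested. The 17 markers had mean levels of 7.23 to 7.52 on the knockout arrays and 7.70 to 8.04 on the control arrays. Their part in the change of Anpep was not tested. Alpi, intestinal alkaline phosphatase, had a change of -1.40 ± 0.37 (adjusted p = 0.0926) with groups that did not overlap. Alpi lies beside the related alkaline phosphatase genes Alppl2 and Akp3, and cross-hybridisation was not tested. Treh, trehalase, was at 5.47 in control 2 and between 4.07 and 4.42 on the other 5 arrays (adjusted p = 0.512).

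Transporters were mostly close to background. Slc51a, a subunit of the basolateral bile acid exporter, was at 4.13, 4.86 and 4.32 on knockout arrays 1 to 3 and 5.62, 7.02 and 7.07 on control arrays 1 to 3, and changed by -2.13 ± 0.37 (adjusted p = 0.0237). Slc5a1, the sodium-coupled glucose transporter of the brush border, was below background on all 3 knockout arrays and between 4.56 and 5.96 on the control arrays, at least 2.58-fold lower (adjusted p = 0.027). These were the 2 called transporters of 5 tested. The peptide transporter gene Slc15a1 was at 3.72, 4.02 and 3.80 on knockout arrays 1 to 3 and 4.02, 5.52 and 5.16 on control arrays 1 to 3 (adjusted p = 0.148). Knockout 2 and control 1 were level there, both below background. Slc6a19, the neutral amino acid transporter, changed by -0.59 ± 0.19 (adjusted p = 0.154), and Slc2a2, the basolateral glucose transporter, averaged 4.07, below background, in the knockout and 4.62 in the control (adjusted p = 0.172). The fructose transporter gene Slc2a5 had a mean below background in both groups, at 3.66 and 4.04, and was not tested.

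Of the 3 genes of intracellular metabolism, 1 was called. Khk, ketohexokinase, which starts fructose breakdown, was at 6.71, 6.57 and 6.95 on knockout arrays 1 to 3 and 7.29, 7.71 and 7.55 on control arrays 1 to 3. Its change of -0.77 ± 0.15 (adjusted p = 0.0352) was the smallest of the called members, with groups that did not overlap. Ada, adenosine deaminase, an enzyme of purine breakdown strongly made in parts of the upper gut lining but found in many cells, was at 7.65, 8.15 and 8.13 on knockout arrays 1 to 3 and 6.90, 7.40 and 7.68 on control arrays 1 to 3. It was the only member with a higher knockout mean, by 0.65 ± 0.21 (adjusted p = 0.159), and knockout 1 lay just below control 3. Control 1 was again the lowest control. Cyp3a11, a drug-metabolising cytochrome, was above background in control 2 alone, at 4.77, and was not tested.

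Genes of brush border structure included 3 called members of 5. Krt20, a keratin of mature villus cells, was at 3.95, 4.24 and 4.35 on knockout arrays 1 to 3 and 5.47, 8.56 and 7.93 on control arrays 1 to 3, with a change of -3.14 ± 0.65 (adjusted p = 0.0406). Control 1 lay nearer to the knockout arrays than to the other controls. Cdhr5, a cadherin that links the tips of microvilli, was at 3.94, 4.75 and 3.94 on knockout arrays 1 to 3 and 5.47, 7.90 and 7.64 on control arrays 1 to 3, and changed by -2.79 ± 0.56 (adjusted p = 0.0381). Its partner Cdhr2, at 4.36 in control 1 and between 3.71 and 4.54 on the knockout arrays, did not pass (adjusted p = 0.192). Vil1, the actin-bundling protein villin whose promoter drives the Cre, was at 4.93, 5.50 and 5.24 on knockout arrays 1 to 3 and 6.14, 7.77 and 7.21 on control arrays 1 to 3, with a change of -1.82 ± 0.36 (adjusted p = 0.0365). It was thus above background on every array. Myo1a, the myosin that ties the actin core to the membrane, was below background on all 3 knockout arrays and in control 1 (adjusted p = 0.109).

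Secreted products completed the list. Guca2b, uroguanylin, which acts on epithelial guanylate cyclase to drive fluid secretion, was at 5.41, 6.13 and 5.93 on knockout arrays 1 to 3 and 7.85, 10.00 and 9.75 on control arrays 1 to 3, with a change of -3.38 ± 0.49 (adjusted p = 0.0113). Guca2a, the related guanylin and its neighbour in the genome, had a change of -2.42 ± 0.66 (adjusted p = 0.103) that did not pass. Knockout 2 at 7.54 lay above control 1 at 7.38, so the groups overlapped. Prap1, a secreted proline-rich protein of the epithelium, was at 5.06, 6.31 and 5.48 on knockout arrays 1 to 3 and 7.16, 9.29 and 8.87 on control arrays 1 to 3, and changed by -2.82 ± 0.51 (adjusted p = 0.0264). Tm4sf20, a membrane protein, was at 4.88 in control 1 and between 4.74 and 5.24 on the knockout arrays, against 7.12 in control 2 (adjusted p = 0.318).

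**Figure D2:**
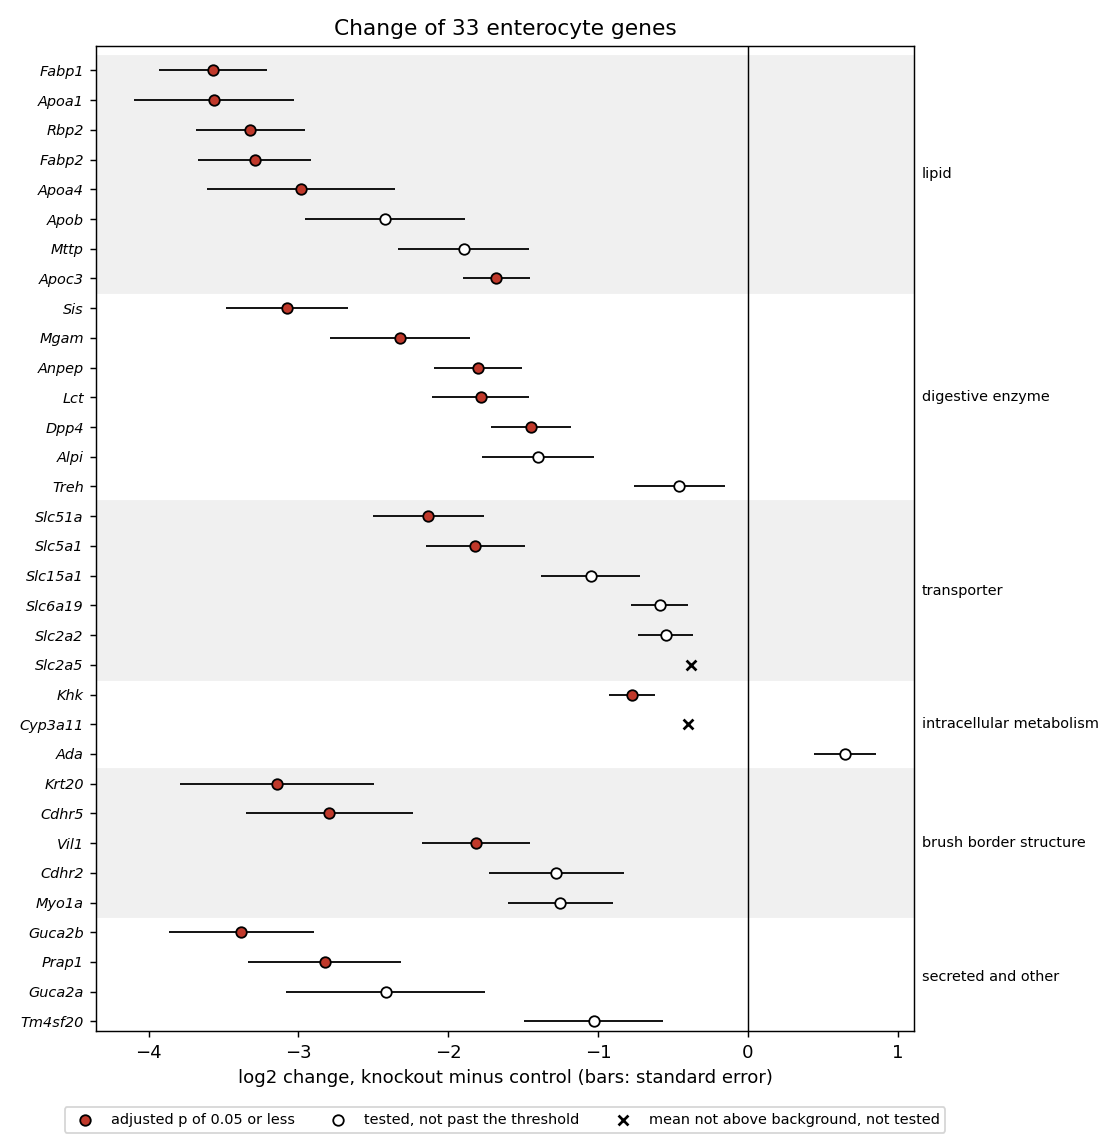
Log2 change, knockout minus control, of each of the 33 genes with the standard error of the limma fit, grouped by role. Filled points mark the 19 genes with an adjusted p of 0.05 or less, open points the 12 tested genes that did not pass, and crosses Slc2a5 and Cyp3a11, whose means were not above background. Ada is the only gene right of 0.

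The members differed in how control 1 compared with the other arrays. Its position can be given as a percentage of the log2 distance from the knockout mean (0%) to the mean of controls 2 and 3 (100%), a measure chosen after the values were seen. It was 73.5% for Fabp1, 64% for Rbp2, 62.4% for Apoc3, 61.3% for Khk, 57.5% for Fabp2, 55.9% for Sis and 51.1% for Apoa1, so that control 1 was nearer to the other controls for these. It was 31.8% for Krt20, 32.7% for Mttp, 28.7% for Apob and 24% for Guca2a, and 11.8% for Cdhr2 and 11.4% for Slc15a1. For Tm4sf20 and Treh control 1 lay at or just below the knockout mean (-1.73% and -5.31%), and for Cyp3a11, near background, it lay lower still (-42.4%). The measure has no such reading for Ada, whose knockout mean was the higher. Genes of other epithelial lists were spread as well. Epcam stood at 3.63% and the goblet cell genes Zg16 and Agr2 at 7.27% and 5.35%, but the goblet cell gene Muc13 stood at 42.5%, the antimicrobial gene Reg3b at 65%, and Spink1, Phgr1 and Lypd8 of the pan-epithelial list at 55.5%, 51.4% and 48%. For genes whose knockout values are at background, the true distance may be larger than measured.

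Other genes of absorption, from a list of 68 that holds none of the 33, were measured as well. Of 50 tested, 8 were lower and 2 higher, where 1.48% and 1.13% of all genes tested were. A negative change was found for 40, against 53.3% of all genes tested, and the median change was -0.43. The lower genes included Mme, the brush border peptidase neprilysin (at least 2.68-fold lower, adjusted p = 0.0104), and Dgat2, an enzyme of triglyceride synthesis (-0.99 ± 0.14, adjusted p = 0.0113). Chosen after their values were seen, Npc1l1, the cholesterol uptake protein, was at 4.97, 5.13 and 5.25 on knockout arrays 1 to 3 and 5.98, 7.84 and 7.56 on control arrays 1 to 3 (adjusted p = 0.04), and Enpep, Apoc2, Gstm3, Papss2 and Cd36 made up the rest, with adjusted p-values from 0.0328 to 0.0482. Cd36 was at 11.72, 11.84 and 11.73 on knockout arrays 1 to 3 and 11.97, 12.04 and 12.02 on control arrays 1 to 3. Its change was only -0.25 ± 0.05, and its values lay above the mean level of the endothelial markers, 10.65 to 10.79. Which cells its RNA came from was not tested. Car4, a carbonic anhydrase also found on capillary endothelium, rose by 0.61 ± 0.10 (adjusted p = 0.0178). Slc1a1, a glutamate transporter, was the other rise (0.75 ± 0.16, adjusted p = 0.0494). The count of 8 lower genes was 20 without control 1 (1.66% of all genes tested), 2 without knockout 1 (0.87%) and 3 without knockout 2 (0.648%). Without knockout 3 (0.327%) it was 0, with 18 of the list at an unadjusted p of 0.05 by limma. It was 2 without control 2 (0.661%) and 2 without control 3 (0.451%). A wide split among the controls, also singled out after its values were seen, was that of Fabp6, the bile acid binding protein of the ileum. It was at 6.31, 5.03 and 5.71 on knockout arrays 1 to 3 and 5.31, 11.32 and 11.30 on control arrays 1 to 3 (adjusted p = 0.222). Control 1 lay within the knockout range for Fabp6, whereas for Fabp1 and Fabp2 it lay above every knockout array.

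Regulators and scaffold genes of the same cells were mostly not called. Of 18 cytoskeletal genes of the brush border, 0 passed by limma and 8 had an unadjusted p under 0.05, of which 6 had a lower and 2 a higher knockout mean, with a median change of -0.25 over the list. The smallest p was that of Mal, a membrane sorting protein, with a higher knockout mean (0.55 ± 0.12, adjusted p = 0.0507), and Rab11a was the other with a higher mean. Pls1, an actin bundler of microvilli, was at 4.21, 4.73 and 4.05 on knockout arrays 1 to 3 and 5.22, 7.66 and 7.54 on control arrays 1 to 3 (adjusted p = 0.0553). Many of this list, such as Actn4 and Ezr, are made by other cells too. Of 13 enterocyte transcription factors tested, 12 had a negative change, against 53.3% of all genes tested, and the median change was -0.43. The mean of the 13 was 5.50 to 5.54 on the knockout arrays and 5.91 to 6.20 on the control arrays, without overlap. Only Klf5 was called (-1.17 ± 0.24, adjusted p = 0.0406), where 1.48% of all genes tested were lower. Hnf4g was at 4.26, 3.91 and 4.06 on knockout arrays 1 to 3 and 4.41, 6.94 and 6.92 on control arrays 1 to 3. It did not pass (adjusted p = 0.116).

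Transcripts of other epithelial cells were measured on the same arrays, where 1.48% of all genes tested were called lower and 1.13% higher. Of 17 pan-epithelial genes tested, Spink1, Lypd8, Phgr1 and Lgals4 were lower, with changes between -4.00 and -2.14 and a list median of -1.0. Of 10 goblet genes, Muc13 was lower (-2.60 ± 0.45, adjusted p = 0.0239; list median -1.32), and of 9 Paneth and antimicrobial genes Reg3b and Reg3g were (list median -0.96). Relative to the control mean, control 1 was at -0.95 for the 33 members, -0.80 for the pan-epithelial list and -1.27 for the goblet list. The knockout arrays lay between -2.05 and -1.63, between -1.50 and -1.19, and between -1.52 and -1.38 for these lists in turn. In each of these lists control 1 lay nearer to the knockout arrays than to the other controls. Crypt and Wnt target genes had a median change of -0.070. Of these, limma called 0 of 14, and 10 had a negative change, against 53.3% of all genes tested. Before adjustment of p, 3 were under 0.05 (Sox9, Nkd1 and Ascl2, all lower), with adjusted p-values from 0.159 to 0.261. Enteroendocrine and tuft genes had a median of -0.10, and limma called 0 of 7, with 1 under 0.05 before adjustment of p (Sct, lower). Counts at an unadjusted p, here and for other lists, have no share over all genes beside them, so they are not read as results. Gip, of the enteroendocrine list, shows the size of the adjustment, with an unadjusted p of 0.0511 and an adjusted p of 0.307 by limma. Whether these lists differ in their change was not tested.

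Markers of other cells gave the background of the sort. For comparison, 1.48% of all genes tested were called lower and 1.13% higher. The 16 endothelial markers had mean levels of 10.71 to 10.79 on the knockout arrays and 10.65 to 10.72 on the control arrays, with 1 higher (Eng, 0.26 ± 0.04, adjusted p = 0.021). Mural and fibroblast markers were lower in 7 of 17 (median -0.70), but control 1 was the highest control for their mean, at 0.20 above the control average, and the lowest for the enterocyte genes. Lymphatic markers were higher in 2 of 6 tested. These were Flt4 (0.65 ± 0.09, adjusted p = 0.0104) and Lyve1 (1.13 ± 0.23, adjusted p = 0.0406). Pdpn, which encodes gp38, was the 1 of 6 with a negative change (-0.30 ± 0.18, adjusted p = 0.461). The mean of the 6 overlapped between groups, at 5.72 to 6.33 on the knockout arrays and 5.47 to 5.85 on the control arrays. Of 13 leukocyte markers 0 were called by limma. A negative change was found for 7, against 53.3% of all genes tested, and the list median was -0.034. By limma 3 had an unadjusted p under 0.05 (Gzma, Nkg7 and Cd3e, all lower). The mean level of the 13 was 6.04 to 6.31 on the knockout arrays and 6.26 to 6.38 on the control arrays. Ptprc, which encodes CD45, was at 4.14 and 4.46, near background.

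**Figure D3:**
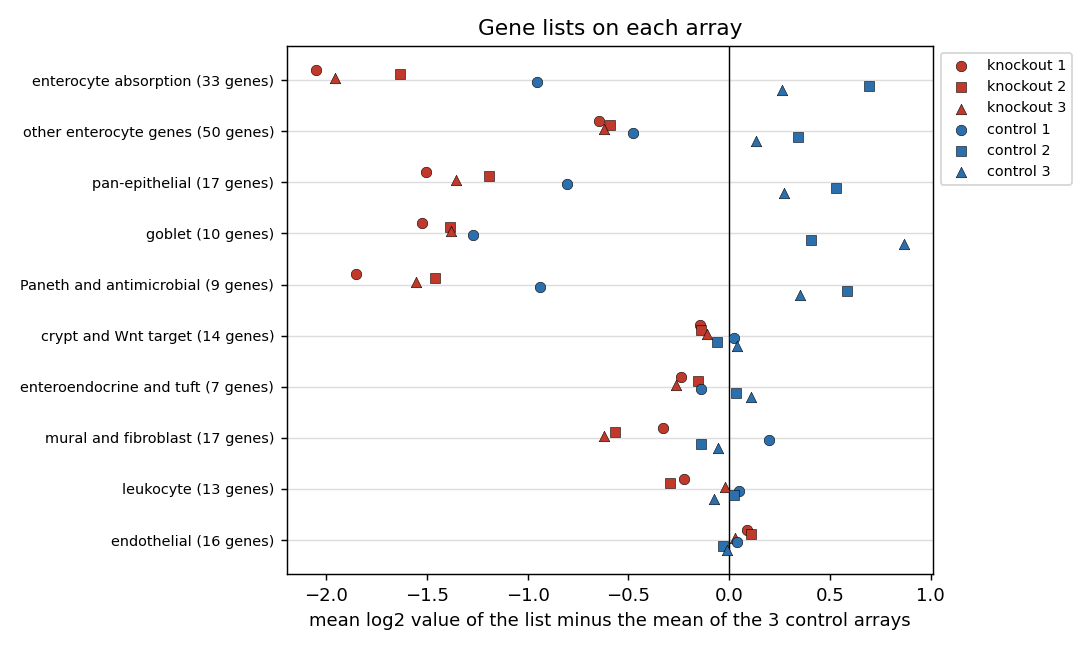
Mean log2 value of each gene list on each array, minus the mean of the 3 control arrays, for the knockout (red) and control (blue) arrays. The enterocyte, pan-epithelial, goblet and antimicrobial lists spread widely among the controls with control 1 lowest, whereas the endothelial list stays within 0.11 of the control mean.

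Calls for single members depended on the spread among few arrays. Fabp1, Rbp2 and Sis passed in each of 15 alternative settings, and Fabp2 and Apoc3 in 14 of 15. Fabp2 missed under robust variance estimates (adjusted p = 0.0527), and Apoc3 against control 1 alone (adjusted p = 0.142). Apoa1 and Guca2b passed in 11 each, and Apoa4 and Krt20 in 6 each. Among the members that did not pass with all arrays, Alpi (adjusted p = 0.000793), Slc15a1 (adjusted p = 0.00326), Cdhr2 (adjusted p = 0.0228) and Slc6a19 (adjusted p = 0.0426) passed without control 1 and in no other setting.

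**Figure D4:**
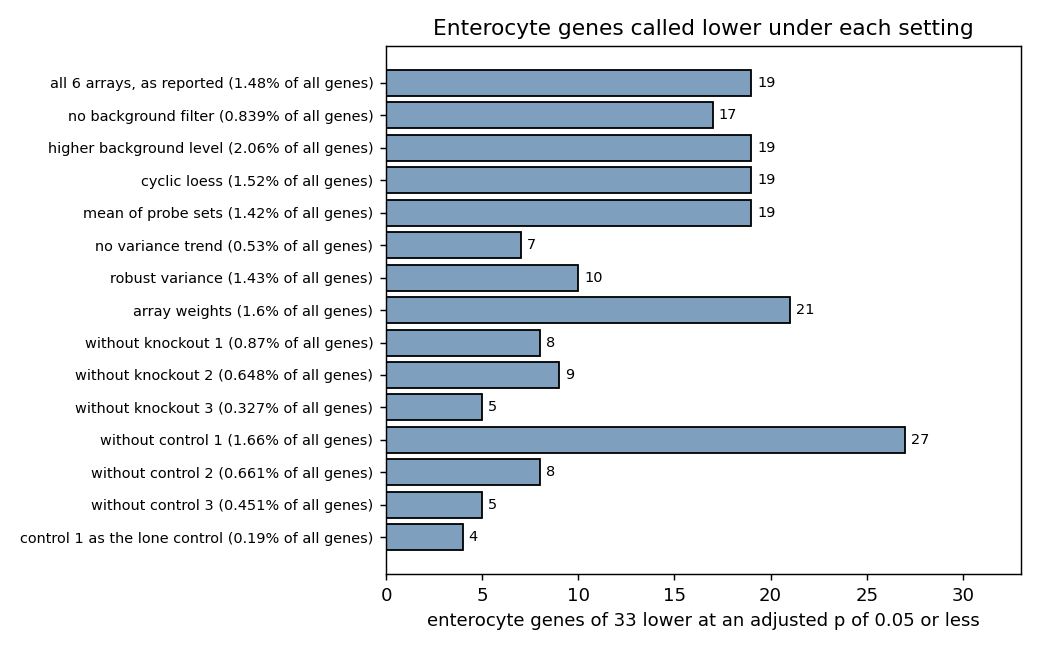
Number of the 33 genes lower in the knockout at an adjusted p of 0.05 or less under each setting of the fit other than the replicate block. The percentage is that of all genes tested that were called lower in the same setting. The count is 19 with all arrays, 27 without control 1 and 4 with control 1 as the lone control.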

How the data were processed

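Expression was measured on 6 Affymetrix Mouse Gene 2.0 ST arrays, 1 per biological replicate, after amplification of RNA, per the labels' protocols. The deposited table holds log2 values of 41345 probe sets. The authors used RMA in oligo, per the submitters' processing notes. RMA corrects background, applies quantile normalization across arrays, which assumes like overall distributions, and summarises probes. Versions are not given in the sources used here.

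Genes were assigned to probe sets from GEO's platform annotation, with symbols updated by gene identifier; 23521 carried 1 symbol, 1814 several and 16010 none. The brightest probe set stood for each of 22180 genes, and 15287 genes with a mean above 4.12 were tested. The knockout and control arrays were fitted in limma 3.58.1 under R 4.3.3 (lmFit, then eBayes with trend), and two-sided p-values were adjusted over all tested genes by Benjamini-Hochberg. Changes are knockout minus control, ± the standard error of that fit unless another is named. For a group mean below background, low arrays were raised to 4.12 and the fold was given as a lower limit. Figures used matplotlib 3.10.9 in Python 3.11.15. The fit was tested on simulated data.

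The members, lists and tests were chosen with earlier results of these data known. Every member is named; of other lists, up to 3 genes with the smallest p and all called genes where these numbered 6 or fewer could be named, and others are said to be chosen after their values were seen. Alternatives covered the filter, normalization, probe sets, variance model, array weights, a replicate block and arrays left out. Not every listed gene was on the annotation with a symbol of its own, and such genes were not analysed here. The list of erythroid and glial markers and that of liver markers had 0 of 4 and 0 of 4 tested genes called by limma, and 0 under 0.05 before adjustment.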

Additional observations from a re-analysis of the deposited data

How the results depend on the processing

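With all arrays 19 members were called lower, against 1.48% of all genes tested. The count was 7 without the variance trend (0.53%) and 10 with robust variance estimates (1.43%). At an adjusted p of 0.01 it was 5, with no share over all genes counted. It ranged from 5 to 27 over arrays left out in turn (0.327% to 1.66%). With control 1 as the lone control it was 4, the median change of the members was -0.91 and the change of their mean -0.925, in place of -1.82 and -1.88. The count of other enterocyte genes called lower, 8 with all arrays, was 5 with the higher background level, 2 without the trend, 4 with robust estimates, 0 to 20 over arrays left out and 0 against control 1 alone (9 at an unadjusted p of 0.05 by limma). With the higher background level, 2.06% of all genes tested were lower. Fewer arrays and fewer genes tested are part of these settings. Otherwise the cause was not tested. The other settings kept these counts within 1.5 times. The direction turned against control 1 alone for Treh (0.037), Tm4sf20 (0.027), Fabp6 (0.38) and Apc (0.054). Pecam1, near 0 with all arrays, was at 0.0012 with cyclic loess, 0.00640 with array weights, and from -0.041 to 0.027 over arrays left out, above 0 without knockout 2, control 1 or control 2. No other gene tested under these settings and named here turned. Cyp3a11, not tested, had a negative change against all controls but a knockout mean above control 1.

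The samples share replicate numbers. Over all genes tested, same-numbered arrays did not deviate together (correlations of -0.020, -0.00775 and 0.039). The labels do not say what a number marks, so the numbers were not taken as pairs. Over the 33 members the order was alike in both groups. Their means were 4.83, 5.25 and 4.93 on knockout arrays 1 to 3 and 5.93, 7.58 and 7.14 on control arrays 1 to 3. Knockout 2 was the highest knockout for 25 of 33, against 39.1% of all genes. A replicate effect shared by these genes was not tested. With the replicate number as a block, 22 members and 9 other enterocyte genes were lower, against 1.54% of all genes tested. Of the 22, 18 were among the 19. The median change was -1.82 and the change of the mean -1.88, and 25 members had groups that did not overlap. Ada then passed as higher (adjusted p = 0.0415), Guca2a (0.00959), Apob (0.0288), Mttp (0.0158) and Myo1a (0.0207) passed as lower, and Khk did not pass (0.0509). Arrays give no read depth, and values near the background level limit what can be seen of the transporters.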
